A study of Mus musculus with 2 samples.

Results

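Open chromatin was described at 10 genes that encode transcription factors of the epithelial-mesenchymal transition (EMT): Snai1, Snai2, Zeb1, Zeb2, Twist1, Twist2, Hmga2, Sox4, Tcf4 and Prrx1. The genes were chosen by name, and a DNaseI-seq peak was counted at a gene when it overlapped the annotated gene body or lay within 50 kb of it. Of the 17784 distinct peaks of the vehicle list, 22 lay at these genes, and of the 22600 peaks of the TGFβ 2 h list, 30 did. The cells were NMuMG, a mouse line of normal mammary gland epithelium that undergoes EMT when given TGFβ. All cells were first kept for 6 h without serum and insulin. They then received TGFβ1 at 5 ng/ml, or its acidified albumin carrier alone (vehicle), for 2 h. DNaseI cuts accessible DNA, and places where the sequenced fragments pile up are called as peaks. There was 1 peak list for each condition and no list of a single replicate, so replicate error could not be estimated and the conditions could not be tested against each other. Every difference is a difference between a pair of lists, and the lists hold no read depth.

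In EMT, cells lose their junctions and apical polarity and gain motility. TGFβ activates SMAD proteins, which enter the nucleus and often act beside AP-1, a dimer of JUN and FOS family proteins, and Snai1 is a known early target. SNAI and ZEB proteins are zinc-finger factors that bind the E-box CACCTG and repress epithelial genes such as Cdh1. TWIST proteins and TCF4 (E2-2) are basic helix-loop-helix factors, HMGA2 is an architectural protein that binds AT-rich DNA, SOX4 is an HMG-box factor, and PRRX1 is a homeobox factor.

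The sequences below show which motifs lay at the start sites and peaks on which the results turn. They were read from the mm9 genome 5′ to 3′, and capitals mark 3 motifs on either strand: TGACTCA of AP-1, CAGAC of SMAD proteins, and CACCTG of SNAI and ZEB proteins. Such letters are a description and not evidence of binding. The first set holds 250 bases before and 30 bases from a transcription start, for a start that was open at the score ceiling in both lists (Snai1) and one without a peak in either list (Twist1).
Snai1 start, chr2:167363445-167363724, plus strand: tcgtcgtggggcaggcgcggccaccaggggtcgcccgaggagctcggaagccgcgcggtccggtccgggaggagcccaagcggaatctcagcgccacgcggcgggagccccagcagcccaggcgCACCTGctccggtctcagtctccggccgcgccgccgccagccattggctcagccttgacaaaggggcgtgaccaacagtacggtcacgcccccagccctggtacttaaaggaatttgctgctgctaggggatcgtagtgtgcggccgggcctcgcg
Twist1 start, chr12:34642286-34642565, plus strand: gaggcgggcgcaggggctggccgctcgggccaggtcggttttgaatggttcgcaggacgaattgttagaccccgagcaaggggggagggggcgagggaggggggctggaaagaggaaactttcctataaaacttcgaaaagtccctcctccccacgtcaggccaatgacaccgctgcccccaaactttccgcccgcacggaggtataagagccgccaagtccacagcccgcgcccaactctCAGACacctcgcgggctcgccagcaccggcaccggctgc

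The second set holds the central 200 bases of peaks called after TGFβ only, written on the plus strand of the chromosome. It has the peak of Snai1 at the score ceiling and the best-scoring distal peak of Snai1, Twist2 and Zeb2. All 4 windows held TGACTCA or its reverse complement TGAGTCA, while the best-scoring distal peaks of Zeb1 and Tcf4, which are not shown, lacked it in the central 200 bases.
Snai1, 14.9 kb downstream of its start, chr2:167378459-167378658: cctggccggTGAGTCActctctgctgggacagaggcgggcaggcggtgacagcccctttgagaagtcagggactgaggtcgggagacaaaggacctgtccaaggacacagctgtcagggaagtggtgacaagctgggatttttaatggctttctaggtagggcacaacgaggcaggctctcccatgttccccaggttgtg
Snai1, 38.1 kb downstream, chr2:167401720-167401919: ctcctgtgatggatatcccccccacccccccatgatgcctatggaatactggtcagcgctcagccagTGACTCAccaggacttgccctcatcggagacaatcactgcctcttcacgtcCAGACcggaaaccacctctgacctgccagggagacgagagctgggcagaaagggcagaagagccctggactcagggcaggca
Twist2, 73.4 kb downstream, chr1:93771354-93771553: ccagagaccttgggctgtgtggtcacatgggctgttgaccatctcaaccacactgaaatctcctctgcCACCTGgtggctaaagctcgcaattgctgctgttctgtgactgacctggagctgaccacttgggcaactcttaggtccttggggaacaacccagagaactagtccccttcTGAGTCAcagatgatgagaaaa
Zeb2, intronic, 67.9 kb from its outermost start, chr2:44904870-44905069: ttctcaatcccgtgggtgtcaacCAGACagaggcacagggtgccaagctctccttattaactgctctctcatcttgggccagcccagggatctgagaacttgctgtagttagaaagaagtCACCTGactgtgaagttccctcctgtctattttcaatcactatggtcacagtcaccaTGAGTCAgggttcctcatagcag

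For contrast, the same window is shown for the vehicle-only peak upstream of Snai1 and for the shared peak just behind the gene, which scored near the bottom of the vehicle list and at the ceiling after TGFβ. Neither window held the AP-1 letters, and both held CAGAC. The other shared distal peaks downstream of Snai1, at 32.1 and 36.8 kb, did hold the AP-1 letters, the latter in its central 200 bases. The shared peak shown therefore does not stand for shared peaks in general.
Snai1, 5.9 kb upstream, vehicle-only, chr2:167357651-167357850: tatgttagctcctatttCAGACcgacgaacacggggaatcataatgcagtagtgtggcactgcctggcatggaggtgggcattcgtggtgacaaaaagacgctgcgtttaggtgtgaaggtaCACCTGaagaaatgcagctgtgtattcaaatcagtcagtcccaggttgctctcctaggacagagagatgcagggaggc
Snai1, 5.5 kb downstream, shared, chr2:167369116-167369315: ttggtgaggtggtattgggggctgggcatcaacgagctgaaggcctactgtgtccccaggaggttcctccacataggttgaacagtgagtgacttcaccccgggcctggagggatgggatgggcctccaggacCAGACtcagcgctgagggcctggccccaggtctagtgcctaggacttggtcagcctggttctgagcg

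The first question was whether the EMT factor genes were already open before TGFβ. At 8 of the 10 genes a peak lay within 1000 bp of an annotated start of the gene, and at all 8 it was present in both lists. In the whole annotation 43.9% of 22208 protein-coding genes had such a start-site peak in both lists. Of promoters with an observed over expected CpG ratio of 0.6 or more, which not all members have, 74.7% had one. Some members have many annotated starts (14 at Tcf4, 10 at Zeb2 and 8 at Zeb1), and a peak at any of them was counted. The members without a start-site peak were Twist1 and Prrx1. At 6 of the 8 genes, Snai1, Snai2, Zeb1, Zeb2, Hmga2 and Tcf4, the vehicle peak had the highest possible score of 1000, the ceiling of the authors' score, which ran from 540 upward and ranks peaks only within its own list. Of all start-site vehicle peaks, 75.1% were at the ceiling, near the share of the members. The start-site peak scored 966 for Sox4 and 790 for Twist2 with vehicle.

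The second question was whether peaks around these genes were called in one condition only. Peaks that shared no base with the other condition's peaks are named vehicle-only or TGFβ 2 h-only, a statement on where peaks were called and not on absence of signal. Of the 30 TGFβ 2 h peaks, 9 were TGFβ 2 h-only, a share of 30.0% (Wilson 95% interval 16.7 to 47.9), against 33.7% of the whole list. Of the 22 vehicle peaks, 2 were vehicle-only, or 9.09% (2.53 to 27.8), against 17.6% of the whole list. Both shares were near those of their lists, given their intervals, which cover counting error only. The former outnumbered the latter by a ratio of 4.5, with an exact binomial 95% interval of 0.931 to 42.8 that includes equality, against a ratio of 2.43 over all peaks. With the TGFβ 2 h list reduced by score to as many peaks as the vehicle list, the members had 6 TGFβ 2 h-only and 3 vehicle-only peaks, a ratio of 2.0, where all peaks gave 0.952. When every deposited row was counted in place of distinct intervals, the members had 114 vehicle and 100 TGFβ 2 h rows, so that the greater number of TGFβ 2 h peaks turned into a smaller number of rows. The whole lists turned the same way, with 70449 and 68542 rows, and what the repeated rows of an interval stand for is not stated in the sources used here.

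The unshared peaks lay away from the factors' own starts. Among the 19 distal TGFβ 2 h peaks, which overlapped no window of 1000 bp around any annotated start, 8 were TGFβ 2 h-only (42.1%, interval 23.1 to 63.7), against 55.3% of all distal peaks of that list. Among the 12 distal vehicle peaks, 2 were vehicle-only (16.7%, 4.7 to 44.8), against 31.6% of all distal vehicle peaks. The ninth TGFβ 2 h-only peak lay at the start of Gm11476, a neighbour of Snai1. It was the sole unshared peak among 11 start-site peaks of the TGFβ 2 h list in these windows, where the whole list had 10.1%. The 9 peaks scored between 621 and 1000, with a median of 696, and 1 of them was at the ceiling. Their widths ran from 289 to 1139 bp, with a median of 452 bp, where unshared peaks of the whole list had a median of 436 bp. Of the 9, 4 lay in an intron of the factor itself (Zeb1, Zeb2 and Tcf4).

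By gene, 5 of 10 had at least 1 TGFβ 2 h-only peak in the window, against 40.6% of all protein-coding genes with windows drawn the same way, and 2 of 10 had a vehicle-only peak, against 26.0%. With windows of 50 kb around start sites, TGFβ 2 h-only peaks remained at 2 of 10, Snai1 and Tcf4. The share of all genes with such windows was not computed, so the 40.6% is not its background. In the windows around gene bodies, the peaks called after TGFβ only lay at Snai1 (3), Tcf4 (3), Zeb1 (1), Zeb2 (1) and Twist2 (1). Those called with vehicle only lay at Snai1 and Tcf4, 1 each. More TGFβ 2 h than vehicle peaks were found at 6 genes, equal numbers at 4 and fewer at 0, where 33.7% of all genes had more, 53.0% equal and 13.2% fewer. At Sox4 the surplus came from a vehicle peak that overlapped 2 TGFβ 2 h peaks. The windows differed in length from 102.1 kb at Twist1 to 443.8 kb at Tcf4, beside a median of 115.5 kb over all genes, so counts are not comparable between genes as they stand.

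**Figure D1:**
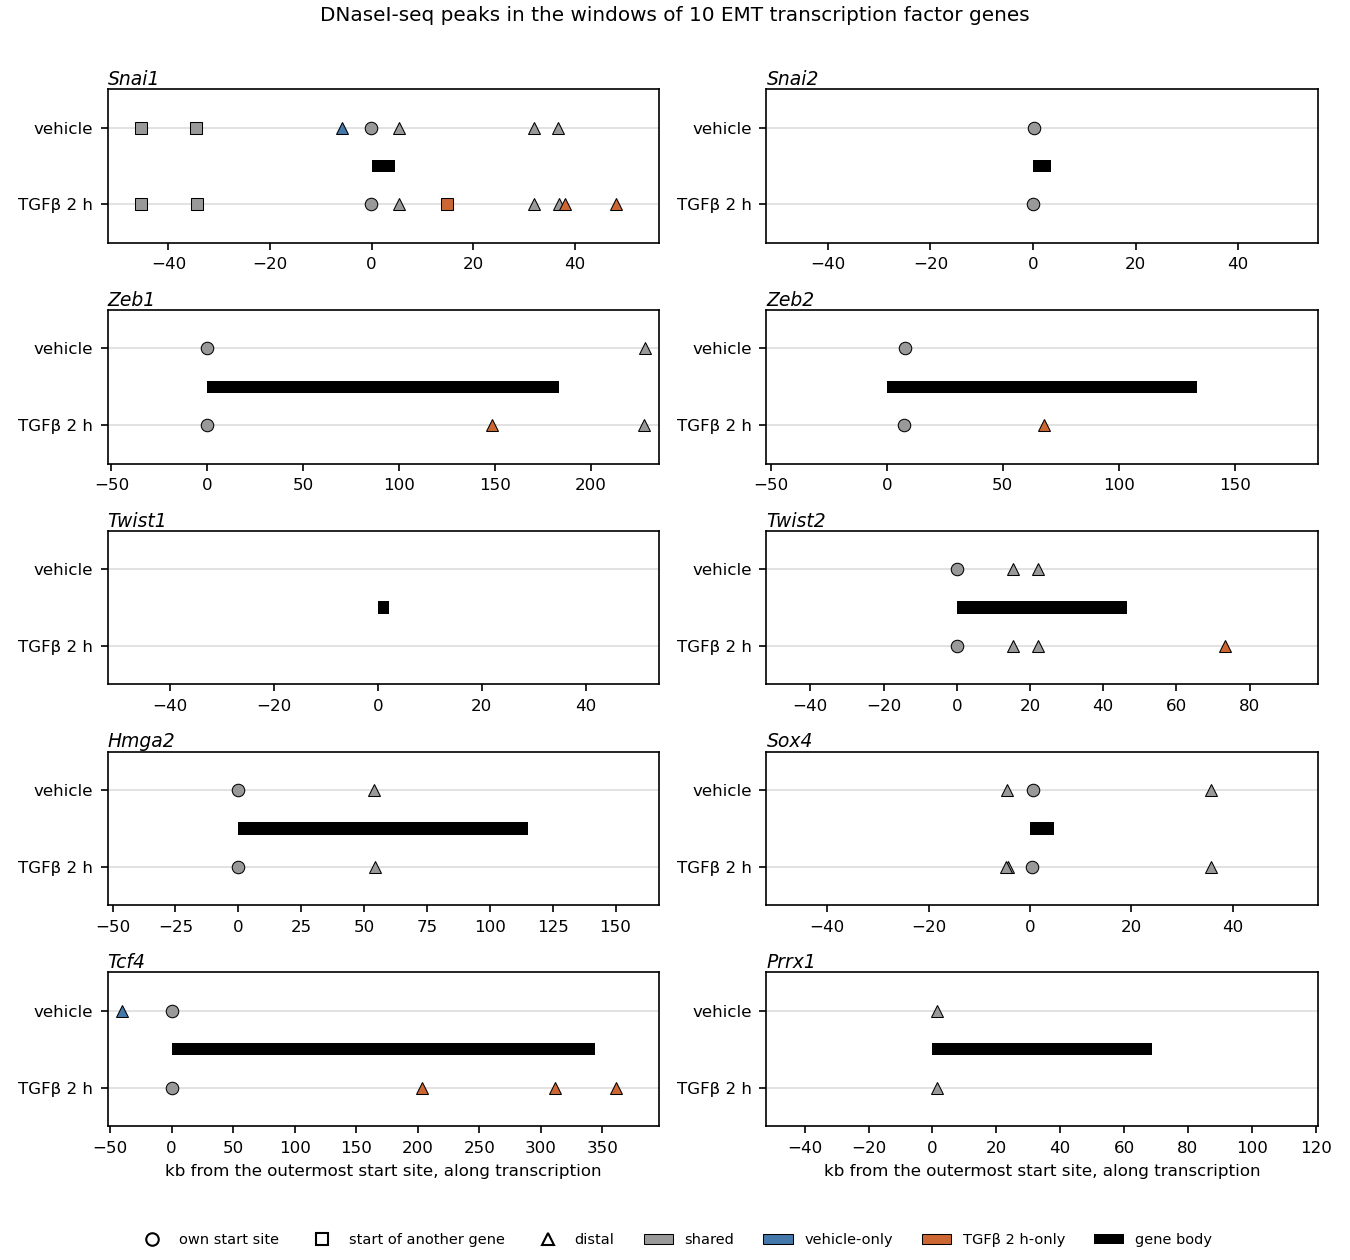
Peak positions at the 10 genes, each panel with its own axis in kb from the outermost annotated start along the direction of transcription, with vehicle peaks above the gene body (black bar) and TGFβ 2 h peaks below it. Circles mark the gene's own start site, squares the start of another gene and triangles distal peaks, and the fill shows that the 9 TGFβ 2 h-only peaks lay at 5 genes and away from the factors' own starts.

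**Figure D2:**
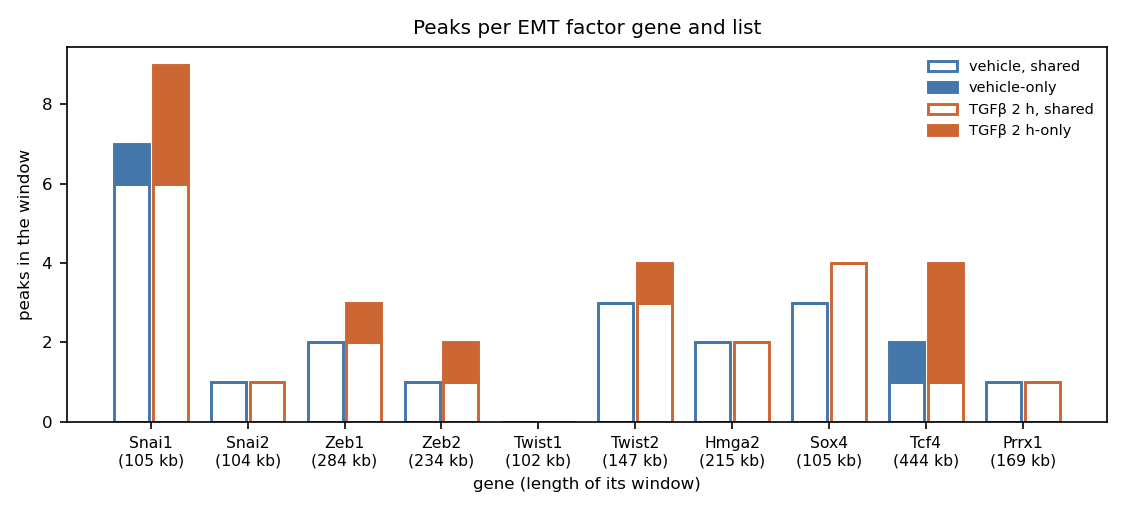
Number of peaks per gene in the vehicle list (blue) and the TGFβ 2 h list (orange), with shared peaks as open and unshared peaks as filled parts of each bar and the window length under each name. Snai1 had 7 and 9 peaks and Twist1 had 0 in both lists.

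Snai1, the zinc-finger repressor that acts early in EMT, had the richest surroundings. It lies at chr2:167363695-167368314 on the plus strand of mm9. Its window held 7 vehicle and 9 TGFβ 2 h peaks, more TGFβ 2 h peaks than at 96.9% of protein-coding genes. The peak at its start, chr2:167363129-167363927 with vehicle and chr2:167363189-167364046 after TGFβ, was at the ceiling in both lists. It was 799 bp wide with vehicle and 858 bp after TGFβ. The pair of shared peaks 45.4 and 34.6 kb upstream in the vehicle list belonged to the starts of Rnf114 and Spata2, and both were at the ceiling in both lists.

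All 3 shared distal peaks downstream of Snai1 scored below the ceiling with vehicle and at the ceiling after TGFβ. The first, 5.5 kb from the start and just behind the gene, scored 572 with vehicle, a score above that of only 5.2% of the vehicle list, and 1000 after TGFβ. The second, at 32.1 kb, scored 900 and then 1000. The third, at 36.8 kb in the vehicle list, scored 776 and then 1000. After TGFβ 55.7% of the list scored below the ceiling, so a score of 1000 says that a peak was in the upper 44.3% and no more. The vehicle list had 53.2% of its peaks at the ceiling, so the ceiling was reached by a smaller share of peaks after TGFβ than before.

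The 3 TGFβ 2 h-only peaks of Snai1 also lay downstream. The peak at chr2:167377989-167379127, at the start of Gm11476, scored 1000 and was 1139 bp wide, and the nearest vehicle peak was 8268 bp away. The peak at chr2:167401675-167401963, in an intron of Gm11476, scored 802 and lay only 892 bp from a vehicle peak, so it counted as shared when peaks up to 1000 bp apart were matched. The peak at chr2:167411486-167412090, in the same gene, scored 673. The vehicle-only peak lay 5.9 kb upstream at chr2:167357577-167357924 and scored 791. Windows with 3 or more TGFβ 2 h-only peaks made up 6.56% of those of all protein-coding genes.

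Snai2 (Slug), the close relative of Snai1, stood in contrast with 1 peak per list. The gene lies at chr16:14705945-14709488. Its only peak, at the start, was at the ceiling in both lists and was 1145 bp wide with vehicle and 871 bp after TGFβ. The nearest peaks beyond the window were 343.9 kb from the gene with vehicle and 230.2 kb after TGFβ, the latter a TGFβ 2 h-only peak that scored 795.

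The ZEB genes each had a start-site peak that was at the ceiling with vehicle and below it after TGFβ, and an intronic peak called after TGFβ only. At Zeb1 (chr18:5591858-5775465) the start-site peak scored 1000 with vehicle and 865 after TGFβ, and at Zeb2 (chr2:44839154-44972915, minus strand) it scored 1000 and 691. Within their lists the Zeb1 peak scored above 46.8% of the peaks with vehicle and above 44.6% after TGFβ, and the Zeb2 peak above 46.8% and 26.0%. Every vehicle peak at the ceiling has the value of 46.8%, so it is only the lowest rank that such a peak can have. Among 8 start-site pairs of these windows that were at the ceiling with vehicle, these 2 were below it after TGFβ, a share of 25.0% (7.15 to 59.1), against 11.5% of 7330 such pairs in the genome. The Zeb2 peak lay 7.2 kb inside the outermost annotated start, near other annotated starts of the gene, and also within 1000 bp of a start of Gm13476. It was 1182 bp wide with vehicle and 679 bp after TGFβ.

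The TGFβ 2 h-only peak in Zeb1 lay at chr18:5740369-5740820, 136.6 kb from the nearest start, and scored 768. The one in Zeb2 lay at chr2:44904764-44905175, 60722 bp from the nearest start, and scored 648. Zeb1 also had a shared peak behind the gene, which scored 626 with vehicle and 775 after TGFβ with widths of 876 and 456 bp. With a window of 50 kb around start sites in place of the gene body, neither intronic peak was counted, nor was the TGFβ 2 h-only peak of Twist2. With lists of equal length by score, the Zeb2 intronic peak was not kept.

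Among the basic helix-loop-helix factors, Twist1 had no peak in either list. The gene lies at chr12:34642536-34644682, and the nearest peak of both lists was 527.4 kb away. Its promoter is rich in CpG, with an observed over expected ratio of 0.83 in the 300 bp around the start, higher than at 76.7% of protein-coding genes. Of the 10057 promoters with a ratio of 0.6 or more, a threshold chosen after the values were seen, 74.7% had a start-site peak in both lists. The lists show that no peak was called there, and a weaker signal below the threshold of the peak caller cannot be seen in them.

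Twist2, the paralog of Twist1, had 3 vehicle and 4 TGFβ 2 h peaks. It lies at chr1:93698038-93744605. Its start-site peak was the lowest in score of the 8 and scored 790 with vehicle and 676 after TGFβ, with widths of 1097 and 606 bp. Of the shared peaks in its intron, the one at 15.5 kb was at the ceiling in both lists, and the one at 22.1 kb scored 851 with vehicle and 1000 after TGFβ. A TGFβ 2 h-only peak at chr1:93771168-93771739, downstream of the gene, scored 696.

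Tcf4, which encodes an E protein that pairs with other helix-loop-helix factors, spans chr18:69503800-69847621 and has 14 annotated starts. The start-site peak was at the ceiling in both lists, with widths of 590 and 500 bp. It was the sole shared peak of the window. The TGFβ 2 h-only peaks at chr18:69707052-69707807 and chr18:69815022-69815338 lay in introns and scored 702 and 630. The third, behind the gene at chr18:69864384-69864740, scored 621, the lowest of all 9. The vehicle-only peak, upstream at chr18:69463268-69463869, scored 884. With only the best-scoring TGFβ 2 h peaks kept, as many as the vehicle peaks, 1 TGFβ 2 h-only peak was left.

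Hmga2, which encodes an architectural protein, and Sox4, which encodes an HMG-box factor, had no unshared peak. At Hmga2 (chr10:119798331-119913525, minus strand) the start-site peak was the broadest among the members, with 1790 bp for vehicle and 1687 bp after TGFβ. This peak and the intronic peak 54.1 kb from the start were at the ceiling in both lists. At Sox4 (chr13:29040788-29045582, minus strand) the start-site peak scored 966 with vehicle and 1000 after TGFβ. The Sox4 peak 35.7 kb downstream scored 567 with vehicle, above only 4.4% of the vehicle list, and 1000 after TGFβ. The vehicle peak 4.5 kb upstream, which scored 786, overlapped 2 TGFβ 2 h peaks that scored 604 and 773.

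Prrx1, a homeobox gene of mesenchyme, had 1 shared peak in an intron and none at a start by the criterion used. The gene lies at chr1:165175247-165243841 on the minus strand. The peak lay 1009 bp from the nearest start with vehicle and 1017 bp after TGFβ, just past the limit of 1000 bp. It scored 671 with vehicle and 582 after TGFβ, and it was the sole one of the 9 distal one-to-one pairs that scored lower after TGFβ. With a limit of 2000 bp, Prrx1 would be counted as the 9th gene with a start-site peak.

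The shared peaks were next compared as pairs. There were 19 one-to-one pairs at these genes, 10 at start sites and 9 distal. Of the 7 distal pairs below the ceiling with vehicle, 5 were at the ceiling after TGFβ, a share of 71.4% (35.9 to 91.8), against 26.8% of 3317 such pairs in the genome. The 5 were the 3 peaks downstream of Snai1 and the peaks of Twist2 and Sox4 named above. The other distal pairs below the ceiling, at Zeb1 and Prrx1, were below it in both lists. Without Snai1 the share was 50.0%, from 4 pairs. Both distal pairs at the ceiling with vehicle, at Twist2 and Hmga2, were at it after TGFβ as well, where 28.0% of such pairs in the genome were below it. This comparison of scores was chosen after the values were seen, the pairs at Snai1 share 1 locus, and scores of different lists have no common unit.

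**Figure D3:**
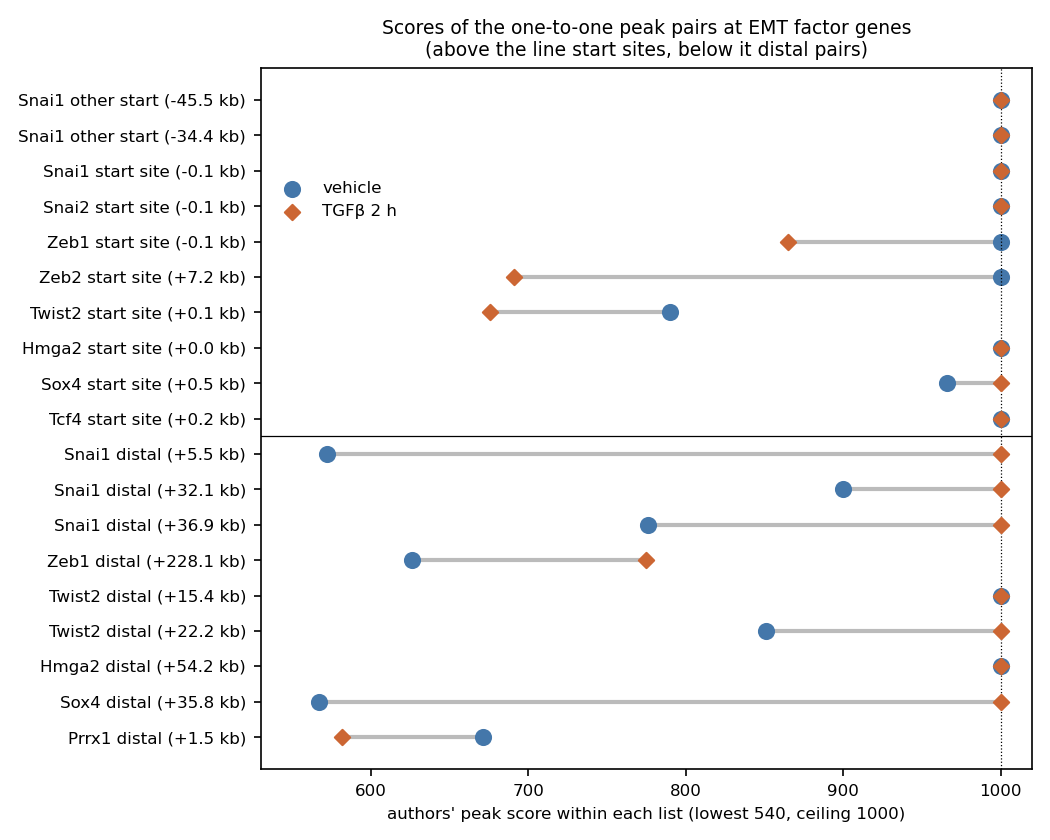
Score of each of the 19 one-to-one pairs in the vehicle list (circles) and the TGFβ 2 h list (diamonds), named by gene and by kb from the outermost start, with start-site pairs above the line and distal pairs below it. At start sites 3 pairs (Zeb1, Zeb2 and Twist2) scored lower after TGFβ, and among distal pairs 5 were at the ceiling of 1000 after TGFβ alone.

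In width, 13 of the 19 pairs were narrower after TGFβ (68.4%, interval 46.0 to 84.6), with a median ratio of 0.938, against 70.9% and a median ratio of 0.906 over all 13978 pairs. The ratio ran from 0.521 at the distal peak of Zeb1 to 1.31 at Prrx1. Of the 3 distal pairs downstream of Snai1, those at 5.5 and 32.1 kb were wider after TGFβ, by ratios of 1.08 and 1.09.

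Motif letters were then counted in the central 200 bp of each peak. TGACTCA of AP-1 was found in 5 of the 8 distal TGFβ 2 h-only peaks of these genes (62.5%, interval 30.6 to 86.3) and in 27.2% of all 6519 such peaks. Over the whole peak interval it was found in 7 of 8, against 45.2%, and Zeb1 had the one peak without it. It was also in the TGFβ 2 h-only peak at the start of Gm11476, so 8 of the 9 peaks had at least 1 site. Neither vehicle-only peak had one, and 7.69% of all distal vehicle-only peaks had one in the central 200 bp. Among distal TGFβ 2 h peaks that were shared, 11 in number, the letters were in the central window of 3, or 27.3%, against 23.5% of the list. Over whole intervals they were in 5 of these 11, or 45.5%, against 44.3%. Without Snai1, 3 of 6 distal TGFβ 2 h-only peaks had TGACTCA in the central 200 bp (50.0%, interval 18.8 to 81.2). That interval includes the 27.2% of the list.

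For each of the other motifs the interval of the members included the share of the list. CAGAC, the short SMAD motif, was in 5 of the 8 peaks, against 54.5% of the list, and over whole intervals in all 8, against 77.0%. GGCGC or GGCCG, the GC-type SMAD motifs, were in 2 of 8, against 19.7%. CACCTG, the E-box that SNAI and ZEB proteins themselves bind, was in 2 of 8 (Zeb2 and Twist2), against 16.8%. CATTCC of TEAD was in 3 of 8 (37.5%, interval 13.7 to 69.4), against 14.9%, a ratio no smaller than that of AP-1. At the members' own promoters, the 300 bp around the outermost start held GGCGC or GGCCG at 6 of 10 genes, where 56.8% of all promoters did. Around the start nearest the peak 8 of 10 held them, and this choice of start was not made for all genes. Of promoters with a CpG ratio of 0.6 or more, 90.8% held them around the outermost start. CACCTG was held around the outermost start at Snai1 and Zeb1, where 19.9% of all promoters held it.

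**Figure D4:**
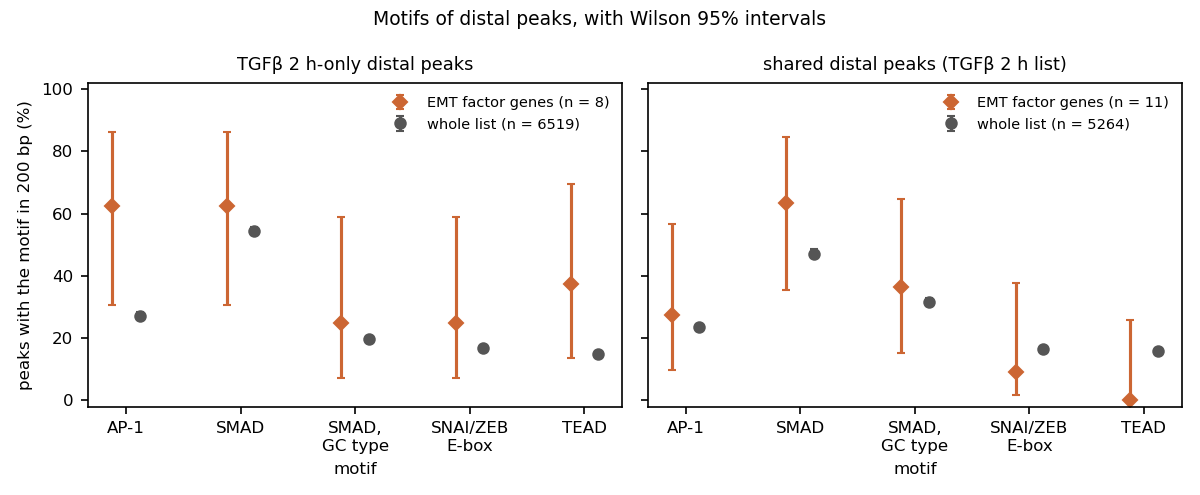
Share of distal TGFβ 2 h peaks with each motif in the central 200 bp, in % with Wilson 95% intervals, for the members (diamonds) and the whole list (circles), with TGFβ 2 h-only peaks on the left and shared peaks on the right. AP-1 stood at 62.5% of the 8 TGFβ 2 h-only peaks of the members and 27.2% of the list, and the other intervals of the members included the share of the list.

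Other regulators of the same transition were examined by the same rule. At 11 further factors linked to EMT (Snai3, Prrx2, Foxc1, Foxc2, Foxq1, Gsc, Klf8, Sox9, Tcf3, Tcf12 and Tbx3) there were 29 vehicle and 35 TGFβ 2 h peaks, of which 5 and 10 were unshared, and 5 of 11 genes had a start-site peak in both lists. At 8 factors that maintain the epithelial state (Ovol1, Ovol2, Grhl1, Grhl2, Grhl3, Elf3, Elf5 and Ehf) there were 28 and 32 peaks, of which 9 and 13 were unshared, and 2 of 8 genes had a start-site peak in both lists, beside the 43.9% of all protein-coding genes. Unshared TGFβ 2 h peaks made up 28.6% (16.3 to 45.1) and 40.6% (25.5 to 57.7), and both intervals overlapped that of the 10 members and included the 33.7% of the list. Unshared vehicle peaks made up 17.2% (7.6 to 34.5) and 32.1% (17.9 to 50.7), against 9.09% at the members and 17.6% of the list. With peaks up to 1000 bp apart matched, an alternative chosen after seeing the data, the epithelial factors had 7 of 28 (25.0%, 12.7 to 43.4), against 15.8% of the list. The cell type labelled was checked by start-site peaks of marker genes, which were the same genes in both lists. The epithelial markers Cdh1, Krt8 and Krt18 had one and Epcam, Cldn7 and Esrp1 had none, the mesenchymal markers Vim, Fn1 and Cdh2 all had one, and 0 of 6 markers of blood, endothelial, neuronal and muscle cells had one.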

How the data were processed

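DNaseI-seq peaks were analysed in 2 samples, grouped by title. Per the methods, the authors aligned reads to mm9 and ran the pipeline of their ATAC-seq data with unstated DNaseI options. For ATAC-seq that pipeline kept peaks that passed an irreproducible discovery rate between replicates, and whether this held for DNaseI-seq is not stated. Merged read files of each condition are named in the study's data listing. MACS2 2.1.2 is named in the submitters' processing notes. The deposited lists give each peak a whole-number score (540 to 1000), whose scaling is not given in the sources used here. The lists hold no read depth. More mapped reads for the vehicle library are named in the study's reporting summary, and they were not used. A difference in depth, digestion or threshold cannot be told apart from the treatment.

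Rows that repeated an interval were counted as 1 peak (70449 vehicle and 68542 TGFβ 2 h rows). Gene models were GENCODE M1 on NCBIM37 (mm9), with coordinates 1-based. Of the pair of Sox4 entries the longer was used, with the starts of both. Nearest to the window limit were shared peaks at Snai1, with the farthest inside 44.9 kb and the nearest outside 51.8 kb from the gene. Overlap meant at least 1 bp. Motifs were searched on both strands around peak midpoints, since the lists hold no summits. All 10 genes are described, with all their start-site, vehicle-only and TGFβ 2 h-only peaks. One further gene of the comparison lists and one start-site sequence are not reported here. The members and lists were chosen with earlier results of these data known. Alternatives concerned the window, overlap, score, width and promoter limit. Overlap and motif functions were tested on simulated data (Python 3.11.15, pandas 2.3.3, SciPy 1.17.1).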

Additional observations from a re-analysis of the deposited data

How the results depend on the processing

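No paired analysis was possible because vehicle and TGFβ 2 h had 1 list each. The TGFβ 2 h-only peaks outnumbered the vehicle-only peaks at the members under all 10 alternatives that gave both, which recount largely the same few peaks. Over all peaks they also did so with full lists (7611 and 3128), but not with lists of equal length (4053 and 4256). The TGFβ 2 h-only share of the members ran from 23.1% to 34.6% when each gene was left out in turn. With every deposited row counted, the members had 114 vehicle and 100 TGFβ 2 h rows, and the ratio of 1.36 turned into 0.877. With peaks at the score ceiling alone there were 10 and 15. The vehicle-only and TGFβ 2 h-only peaks numbered 1 and 5 within 10 kb, TGFβ 2 h-only peaks numbered 15 within 100 kb, and vehicle-only peaks numbered 4 with a reciprocal overlap of 50%. Peaks at the ceiling, compared with all peaks of the other condition, left 0 vehicle-only and 1 TGFβ 2 h-only peak, a share of 6.67%. Over all peaks, 7.77% of the TGFβ 2 h-only and 62.8% of the shared TGFβ 2 h peaks were at the ceiling. This setting therefore leaves out most TGFβ 2 h-only peaks of the whole list as well. Of pairs at the ceiling of both lists, 87.5% were narrower after TGFβ (interval 52.9 to 97.8), against 75.4% of all such pairs. Over whole intervals, 87.5% of the distal TGFβ 2 h-only peaks held AP-1 and 100% held CAGAC. The causes were not tested, beyond what each setting itself leaves out. Leaving out Snai1, and counting the split Sox4 peak as a pair, were chosen after seeing the data. Of 76 alternatives for the main values, 61 stayed within 1.5 times the count or within the interval. Of 90 for single genes, 23 did not. What limits every result is the single list per condition, read depths that the lists do not hold and that were not used, and the ties at the score ceiling.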

Other observations

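Among the further regulators, start-site peaks differed between the lists at some genes, while those of the 10 EMT factors did not. Of all start-site peaks, 10.1% were TGFβ 2 h-only and 747 of 10251 vehicle-only, so few are looked for among so few genes. The difference between the gene sets was not tested. Foxc1, a forkhead factor of mesenchyme, had a broad vehicle-only start-site peak of 1966 bp at the score ceiling (chr13:31897891-31899856), while its TGFβ 2 h list held 2 distal peaks and none at the start. Foxq1, another forkhead factor, had a TGFβ 2 h-only start-site peak at the ceiling (chr13:31649905-31650546), which lay 116 bp from a vehicle peak and so counted as shared when peaks up to 1000 bp apart were matched. It lay beside a shared start-site peak that scored 961 with vehicle and 771 after TGFβ. Its 4 shared distal peaks scored 971, 922, 974 and 747 with vehicle and 1000, 1000, 1000 and 874 after TGFβ. Elf5, a factor of mammary luminal cells, had a start-site peak after TGFβ only, which scored 718, and so did Tbx3 at an internal start, with a score of 629. Grhl2, an epithelial factor, had a vehicle-only peak at an internal start, which scored 685. These genes were chosen from the lists after their values were seen, and no difference between the conditions was tested.

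Beyond the windows of the EMT factors, a TGFβ 2 h-only peak lay 81.1 kb from Zeb1 and scored 997, where the nearest vehicle peak outside the window was 177.0 kb away. In the TGFβ 2 h list the nearest peak outside the window was TGFβ 2 h-only at 5 of the 10 genes and shared at the other 5, and in the vehicle list it was vehicle-only at 1 gene, Twist2, and shared at 9. These nearest peaks were taken at any position. Of all peaks 33.7% were TGFβ 2 h-only and 17.6% vehicle-only in their own lists, and of distal peaks 55.3% and 31.6%. Counts from 10 genes are too few to set these genes apart from such shares.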
